A study of Mus musculus with 4 samples.

Results

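Dusp4, Dusp6, Ier3 and Ccnd1, genes known as feedback regulators and downstream targets of the ERK kinase pathway, were followed over 4 bead arrays of mouse neural precursor cells. They were taken by gene symbol: every probe that the platform annotation pairs with 1 of the 4 symbols was kept, which gave 10 probes, 3 each for Dusp4, Dusp6 and Ccnd1 and 1 for Ier3. The 4 genes stand among 8980 genes with a named probe. The source was the embryonic day 12 cortex of ICR mice, and the cells were expanded in epidermal growth factor plus basic fibroblast growth factor. For 2 hours they met retroviral supernatant carrying the empty pCL vector (Control), Nurr1, Foxa2, or both (Nurr1+Foxa2). All 4 groups, Control included, were then kept without both growth factors for 2 days before RNA was taken. Nurr1 is a nuclear receptor encoded by Nr4a2 and Foxa2 is a forkhead factor made in the floor plate. The series concerns their joint action in dopamine neurons. The share of cells that carried each virus, whether both factors shared 1 vector, and the promoter that drove them, are not stated in the labels used here.

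Growth factors such as those withdrawn here act through receptor tyrosine kinases, which switch on the small GTPase Ras and then the kinases Raf, Mek and Erk. Active Erk turns on immediate early genes and, among its targets, genes for its own inhibitors. Dusp6 encodes a cytoplasmic phosphatase that removes the activating phosphates from Erk, and Dusp4 a related nuclear phosphatase. Ier3 is an early response gene involved in cell survival that also answers to NF-kappaB and p53. Ccnd1 encodes cyclin D1, which activates the G1 kinases Cdk4 and Cdk6 and links growth factor signals to division of neural precursors. Erk activity itself was not measured, so the grouping rests on what is known of the genes.

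Each group had 1 array, so no difference has a replicate check, no p-value is given, and the number of arrays limits the precision. A probe counted as detected when its deposited detection p-value was under 0.01. Detected probes numbered 10971 to 11460 per array, and the lowest detected signal lay between 166.4 and 179.1. A fold is taken from background-corrected, normalized log2 values, while quoted signals are as deposited, and the ratio of 2 signals is therefore not the fold. Where the dimmer array did not detect a probe, its value was raised to the lowest detected level and the fold is a bound, written "at least". The yardstick is the standard deviation (SD) of the log2 difference between probes of the same gene, which was 0.185 for Nurr1 against Control (1943 genes) and at most 0.241 in any comparison. It leaves out differences between cultures and all probes not detected on both arrays. Ier3, with 1 probe, has no spread of its own. Nr4a2 read 166.8 with the empty virus, 1669 with Nurr1, 215.8 with Foxa2 and 1620 with both, high on both arrays labelled with Nurr1, while Foxa2 has no named probe here. All 6 named markers of neural precursors were detected, and 1 named marker each of microglia (Aif1), endothelium (Kdr) and red blood cells (Hba-a1) was detected on no array.

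With Nurr1 alone, all 4 genes were at least 2-fold above Control. By the brightest probe of each gene, used throughout this paragraph, Dusp4 was at least 12.0-fold higher, Ier3 6.65-fold, Ccnd1 4.34-fold and Dusp6 3.92-fold. Of all 7808 genes with a difference in this comparison, 4.43% were at least 2-fold higher. With Foxa2 alone, 3 of the 4 passed 2-fold, where 3.58% of genes did: Dusp4 at least 5.14-fold, Ccnd1 3.37-fold and Dusp6 2.61-fold, while Ier3 was 1.32-fold above Control. With both factors all 4 were again at least 2-fold higher, where 7.18% of genes were. Dusp4 was at least 11.1-fold higher, Ccnd1 4.68-fold, Dusp6 4.10-fold and Ier3 2.47-fold. The median log2 difference of the 4 genes was 2.43 with Nurr1, 1.57 with Foxa2 and 2.13 with both, beside -0.03, -0.04 and -0.09 over all genes. All 3 comparisons use the same Control array, and the genes were picked with results of these arrays known, so these counts are a description. In RNA from a whole culture, a higher level per cell and a larger share of cells with the RNA cannot be told apart.

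**Figure D1:**
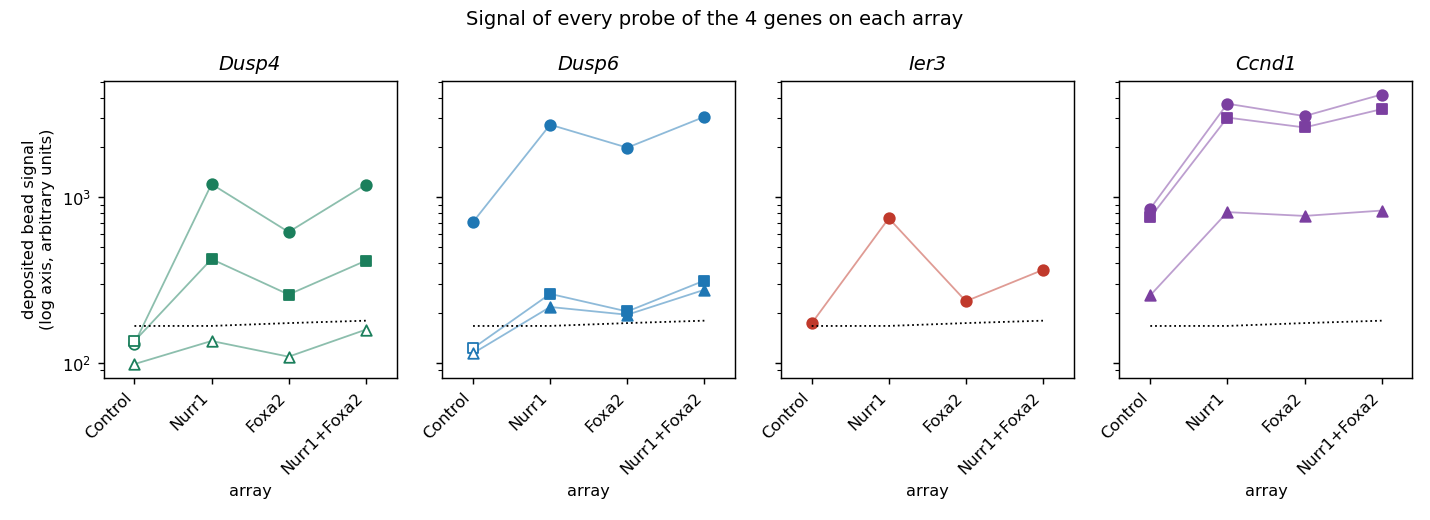
Deposited bead signal (log axis, arbitrary units) of all 10 probes on each array, with a line joining the 4 values of a probe. Filled symbols are detected values, open symbols are not detected, and the dotted line is the lowest detected signal. Control is the lowest array for every probe.

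The brightest Dusp4 probe read 130.2 with Control, below detection, 1201 with Nurr1, 616.1 with Foxa2 and 1192 with both. Dusp4 was thus not detected with the empty virus and clearly measured on the other 3 arrays. Among all genes its bound ranked 16 of 7808 with Nurr1 and 41 of 7783 with Foxa2. The array with both factors lay 0.11 (log2) below the Nurr1 array (0.22 on the second probe, beside an SD between probes of 0.201), and 1.11 above the Foxa2 array. The second probe gave signals of 134.7 (not detected), 422.5, 257.8 and 412.9 in the same order of arrays. It placed the arrays in the same order and gave smaller bounds, at least 3.65-fold with Nurr1, 1.66-fold with Foxa2 and 3.14-fold with both. Without the floor it gave 2.59, 1.45 and 2.37 (log2), against 4.42, 3.20 and 4.31 on the brightest probe. The 2 probes thus disagreed on the size of the differences from Control, by more than the SD between probes. On the 2 probes detected with both single factors, Nurr1 exceeded Foxa2 by 1.22 and 1.14 (log2). The last Dusp4 probe, with signals from 97.85 to 158, was detected on no array and gave no difference. Across the 8 alternative settings the log2 difference of Dusp4 with Nurr1 ranged from 2.73 to 4.42, the latter without a floor. The 1.11 for both factors against Foxa2 was 0.99 when background was left in and 0.98 in the authors' table, under the 2-fold line.

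The brightest Dusp6 probe read 708.8 on the Control array, 2747 with Nurr1, 1995 with Foxa2 and 3065 with both. It was detected on all 4 arrays, with Control far below the rest. The Nurr1+Foxa2 array exceeded the Nurr1 array by 0.07 (log2) on this probe and by 0.17 and 0.29 on the others, beside an SD between probes of 0.201, while the Nurr1 array exceeded the Foxa2 array by 0.59. The dimmer probes read 122.1 and 113.7 on the Control array, neither detected, 260.2 and 216.8 with Nurr1, 203.6 and 194.6 with Foxa2, and 313.1 and 275.4 with both. Raised to the detection floor they gave bounds of 0.92 and 0.53 (log2) with Nurr1. Without the floor they gave 1.98 and 1.8, close to the 1.97 of the bright probe. Averaging the 3 probes, bounds included, put Dusp6 with Foxa2 at 0.54, short of 2-fold.

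Ccnd1 was measured by 3 probes whose differences lay close together. Its brightest probe read 854.1 on the Control array, 3680 with Nurr1, 3096 with Foxa2 and 4182 with both, and its second 755.2, 3033, 2643 and 3410. The dimmest read 255.1, 812.7, 770.7 and 830.2. All 3 probes were detected everywhere and had Control far below the other arrays. Their mean log2 difference from Control was 2.01 ± 0.11 (SD over 3 probes) with Nurr1, 1.70 ± 0.05 with Foxa2 and 2.04 ± 0.22 with both. Nurr1 exceeded Foxa2 by 0.31 ± 0.07 on these probes, and both factors against Nurr1 alone gave 0.03 ± 0.11, a difference smaller than its spread.

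Ier3 had a pattern of its own. Its single probe read 172.6 on the Control array, 745.6 with Nurr1, 234.9 with Foxa2 and 363.6 with both. The Nurr1 array stood above the other 3, and the Control signal lay just above the lowest detected there (166.4), so its folds rest on a value near the detection limit. With both factors Ier3 was 2.70-fold lower than with Nurr1 alone, a log2 difference of -1.43 against an SD between probes of 0.201. In that comparison 1.74% of 7950 genes were at least 2-fold lower and 4.43% higher. None of the other 3 genes passed 2-fold there. The 1.30 (log2) for both factors against Control was 0.85 when background was left in and 0.86 in the authors' table, while the difference from Nurr1 alone stayed between -1.17 and -1.43 in all 8 settings.

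Set against Foxa2 alone, Nurr1 went with higher values of Ier3 (5.02-fold) and Dusp4 (2.33-fold), 2 of the 4 genes, where 3.16% of all genes were at least 2-fold higher. Dusp6 was 1.5-fold and Ccnd1 1.29-fold higher. Both factors against Foxa2 alone put 1 of the 4, Dusp4, at least 2-fold higher (2.16-fold), where 4.84% of genes were. Ier3 was 1.86-fold, Dusp6 1.57-fold and Ccnd1 1.39-fold higher in that comparison. The order of arrays was therefore Control, Foxa2, then Nurr1 and Nurr1+Foxa2, which on the brightest probes differed by less than the probe spread, for Dusp4, Dusp6 and Ccnd1, and Control, Foxa2, Nurr1+Foxa2, Nurr1 for Ier3.

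**Figure D2:**
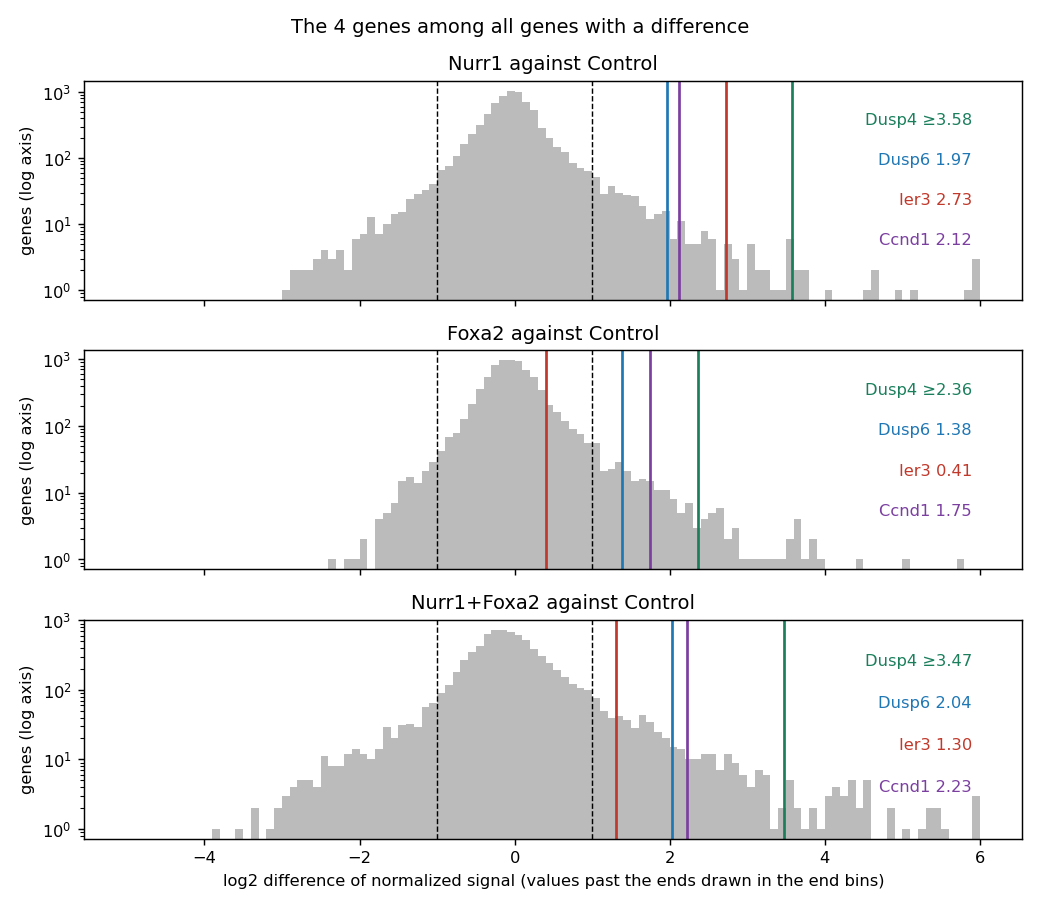
Histograms of the log2 difference from Control over all genes with a difference (count on a log axis), for Nurr1, Foxa2 and both factors. Coloured lines mark the 4 genes and dashed lines 2-fold; 3 or 4 of the lines lie beyond 2-fold in each panel, and Ier3 with Foxa2 (0.41) does not.

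The promoter windows of Dusp6 and Ier3 are shown because no promoter sequence was available for Dusp4 or Ccnd1. Dusp6 and Ier3 shared higher levels with Nurr1 but parted when Foxa2 was added. They run from 250 bases before to 50 bases after the RefSeq start site in GRCm38.p6, on the plus strand, Dusp6 at chr10:99262981-99263280 and Ier3 at chr17:35821463-35821762. Capitals mark CCAAT boxes (CCAAT, either strand) and a TATA box (TATAA, either strand), none of which overlap.
Dusp6: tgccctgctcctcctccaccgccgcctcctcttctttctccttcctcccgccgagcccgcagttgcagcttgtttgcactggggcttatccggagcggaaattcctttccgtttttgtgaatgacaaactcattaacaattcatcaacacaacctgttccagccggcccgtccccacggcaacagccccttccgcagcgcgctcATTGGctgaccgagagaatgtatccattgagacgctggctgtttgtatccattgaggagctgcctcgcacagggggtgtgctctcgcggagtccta
Ier3: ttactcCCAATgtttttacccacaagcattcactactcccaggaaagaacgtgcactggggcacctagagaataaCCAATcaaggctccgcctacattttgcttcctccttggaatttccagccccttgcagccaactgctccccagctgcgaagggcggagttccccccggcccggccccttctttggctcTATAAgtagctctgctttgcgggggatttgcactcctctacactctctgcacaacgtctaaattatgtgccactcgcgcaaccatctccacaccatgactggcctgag
The windows hold 57.3% and 54.0% G or C. A CCAAT box occurs in 37.4% of 32851 promoter windows of this length and TATAA in 24.9%. On either strand, neither window held AAAGGTCA (the NBRE bound by Nurr1, in 1.51% of windows), TGTTTAC (a forkhead site, 3.65%), CCGGAA (an ETS site, 14.9%), TGACGTCA (a CRE, 1.79%) or TGANTCA (an AP-1 site, 7.81%). The CArG core of the serum response element (1.63%) and the kappaB consensus (5.80%) were not found either. Only these fixed letters were searched, so looser forms of a site were not counted. These are letter matches in a short window and say nothing of binding there or elsewhere.

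With both factors, each of the 4 genes lay below the level that the single effects would sum to on the log2 scale. That sum adds the differences of Nurr1 and of Foxa2 from Control to the Control level. Ier3 was 1.84 below it (a departure of -1.84), Ccnd1 1.64 below (-1.64) and Dusp6 1.31 below (-1.31). For Dusp4, whose Control value is a bound, the departure was -2.47 or lower. The dimmer Ccnd1 probes gave -1.62 and -1.75. Over 7127 genes detected on all 4 arrays the median departure was -0.03, and 0.421% of them lay below Ier3, 0.659% below Ccnd1 and 1.45% below Dusp6. The 4 genes were picked with results of these arrays known, and both single effects are taken from the same Control array. A low Control reading would by itself lower the departure, so these shares are a description. No signal of the 4 genes exceeded 4182, against highest signals of 64378 to 66419 on the arrays. Whether the signals of these probes had a ceiling was not tested. On the brightest probes, 6 other settings gave -1.22 to -1.41 for Dusp6 and -1.41 to -1.96 for Ier3. The value for Dusp6 rests on its bright probe: with its dimmer probes, not detected on the Control array, averaged in, the departure was -0.37. Raised to the floor the dimmer probes gave -0.01 and 0.23 as upper bounds, and without a floor -1.07 and -1.04. The second Dusp4 probe gave -0.95 or lower.

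**Figure D3:**
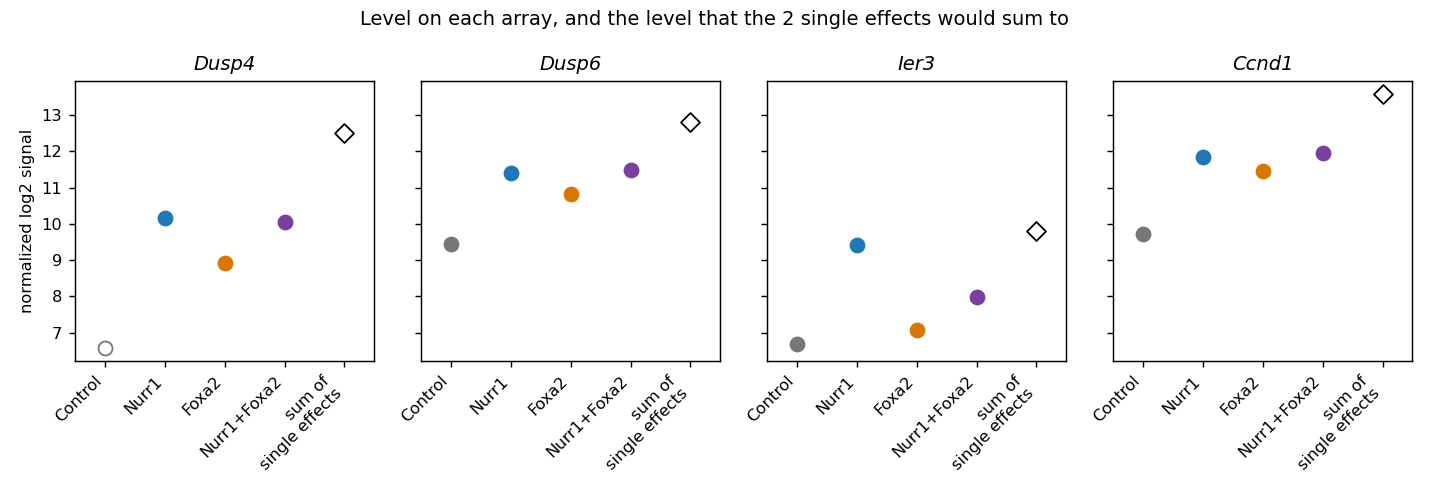
Normalized log2 signal of the brightest probe of each gene on each array (filled circles, open where raised to the detection floor), with the sum of the single effects as an open diamond. With both factors every gene lies below its diamond, by 1.31 for Dusp6 and 1.84 for Ier3.

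Of 13 other DUSP genes with a difference from Control, 2 were at least 2-fold higher with Nurr1, Dusp8 (2.59-fold), which acts on other MAP kinases, and Dusp26 (2.43-fold). None was 2-fold lower, where 2.83% of all genes were. With Foxa2, Dusp10, a phosphatase of p38 and JNK, was at least 3.35-fold and Dusp8 2.03-fold higher. With both, Dusp23 was 2.51-fold higher and Dusp15 2.72-fold lower, where 4.81% of genes were at least 2-fold lower. The list's median was 0.19 with Nurr1, -0.09 with Foxa2 and -0.07 with both. With background left in, the counts past 2-fold with Nurr1 and with Foxa2 were 1 each. Dusp1, an immediate early phosphatase, was 1.36-fold above Control with Nurr1, 1.33-fold above with Foxa2 and 1.20-fold below with both.

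Of 11 Sprouty, Spred and other inhibitors that act above Erk with a difference, none passed 2-fold in either direction with Nurr1 or with Foxa2 (1.5% of all genes were at least 2-fold lower with Foxa2). With both, Errfi1, a feedback inhibitor of the epidermal growth factor receptor, was 2.41-fold higher and Spry3 2.85-fold lower. Spry4, a feedback target of Erk, was not detected on the Control array and was at least 1.8-fold higher with Nurr1, 1.46-fold with Foxa2 and 1.48-fold with both. Lrig1, an inhibitor of receptor tyrosine kinases chosen after its values were seen, was 1.73-fold above Control under Foxa2 and 1.81-fold below it under Nurr1. Spred1 differed from Control by at most 1.20-fold, Spry1 was detected on no array and Spry2 has no named probe. The list's medians were -0.07, -0.07 and -0.21.

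Among immediate early and other Erk-induced transcription genes, 2 with Nurr1, 1 with Foxa2 and 3 with both passed 2-fold. Fos, a component of AP-1, read 177.1 on the Control array, 400.6 with Nurr1, 244.6 with Foxa2 and 417.4 with both, and was 3.03-fold, 1.34-fold and 2.82-fold above Control. Etv5, an ETS factor induced by fibroblast growth factors, was 2.45-fold, 1.71-fold and 2.59-fold above Control. Fos and Etv5 thus had the Foxa2 array below the other virus arrays, as Dusp4 and Dusp6 did. Egr1, a zinc finger factor, was 1.90-fold, 1.66-fold and 3.83-fold above Control, with its highest signal, 5521, on the array with both factors. Etv4 was 1.63-fold higher with Nurr1, 1.24-fold lower with Foxa2 and 1.45-fold higher with both, and Myc 1.31-fold higher, 1.45-fold lower and 1.51-fold lower. Emp1, a membrane protein gene, was 4.77-fold higher with Foxa2. Of 15, 15 and 16 with a difference, 2, 1 and 3 were at least 2-fold higher, beside 4.43%, 3.58% and 7.18% of all genes. None was 2-fold lower, beside 2.83%, 1.5% and 4.81% of all genes, and the medians were 0.36, 0.17 and 0.32. Without a floor or detection filter the medians with Nurr1 and with both were 0.06 and 0.04.

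**Figure D4:**
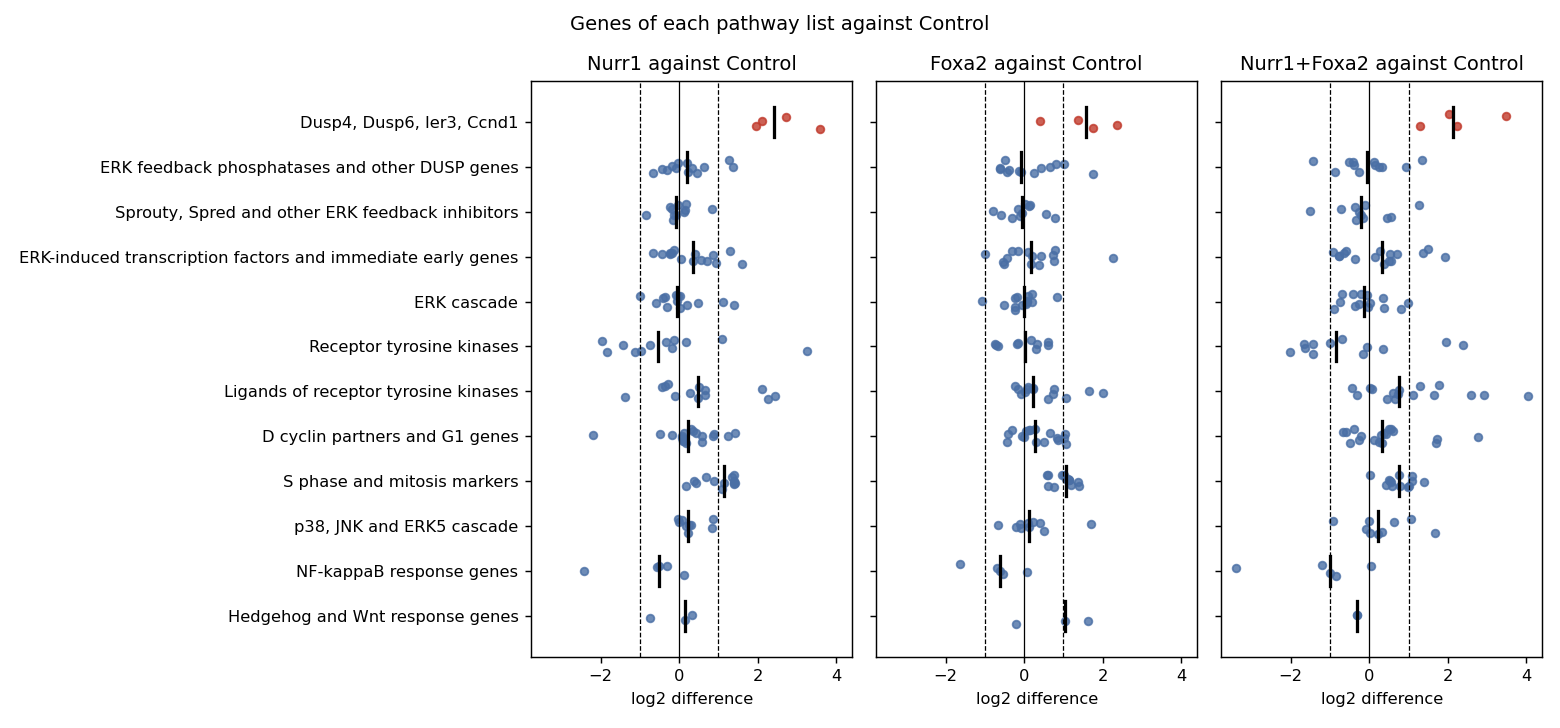
Log2 difference from Control of each gene with a difference (points) in the 4 genes (red) and in 11 pathway lists (blue), with the list median as a black bar and 2-fold as dashed lines. The median of the S phase and mitosis list is 1.14 with Nurr1, 1.06 with Foxa2 and 0.76 with both factors, and that of the ERK cascade -0.05, -0.00 and -0.14.

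Of 14 genes of the cascade from Ras to Erk, adaptors included, with a difference from Control, 2 were at least 2-fold higher with Nurr1, the Ras activator Rasgrf1 (at least 2.61-fold) and the adaptor Shc3 (at least 2.19-fold). With Foxa2 the Ras activator Rasgrp1 was 2.12-fold lower, and with both factors none passed 2-fold. The counts with the single factors were 0 when background was left in and in the authors' table, and with both factors the count was 2 when the floor was dropped or detection loosened. The medians were -0.05, -0.00 and -0.14. Of all genes, 4.43%, 3.58% and 7.18% were at least 2-fold higher in the 3 comparisons, and 2.83%, 1.5% and 4.81% lower.

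Receptors and ligands upstream differed more. Of 12 receptor tyrosine kinase genes with a difference with Nurr1, 4 were at least 2-fold lower: Alk (at least 3.92-fold), Axl (3.59-fold), the neurotrophin receptor Ntrk2 (2.67-fold) and Fgfr3 (2.18-fold). Ret, the receptor of glial cell line-derived neurotrophic factor, was at least 9.56-fold and Mertk at least 2.12-fold higher. None of 10 passed 2-fold with Foxa2. With both factors 5 of 12 were lower, among them Alk (at least 4.05-fold), Ntrk2 (3.19-fold), Axl (3.08-fold) and Pdgfra (2.71-fold), and Mertk (at least 5.19-fold) and Ret (at least 3.84-fold) were higher. The shares of all genes at least 2-fold lower were 2.83%, 1.5% and 4.81%, and at least 2-fold higher 4.43%, 3.58% and 7.18%. The list's medians were -0.54, 0.01 and -0.84, and without a floor or detection filter that with Nurr1 was -0.34.

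Among ligand genes, Kitl was at least 5.44-fold higher with Nurr1, Igf2 4.82-fold and Hbegf, which activates the epidermal growth factor receptor, 4.35-fold, and Mdk was 2.58-fold lower. Hbegf read 220 on the Control array, 759.2 with Nurr1, 372.9 with Foxa2 and 507.2 with both. That is the array order of Ier3, and Igf2 had it too (205.4, 753.1, 319 and 567.2). Whether either ligand bears on Ier3 was not tested. With Foxa2, Kitl was at least 4.03-fold, Bdnf 3.12-fold and Gas6 2.10-fold higher. With both factors 7 of 16 ligand genes were at least 2-fold higher, where 7.18% of all genes were. They were led by Fgf10 (at least 16.4-fold), Vegfa (7.57-fold), Bdnf (6.05-fold) and Kitl (at least 3.4-fold). With Nurr1 4.43% and with Foxa2 3.58% of all genes were at least 2-fold higher. The medians of the ligand list were 0.49, 0.22 and 0.74, and without a floor or detection filter 0.28, 0.21 and 1.01.

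The partners of cyclin D1 gave a mixed picture. The other D cyclins differed less than Ccnd1: Ccnd2 was 1.51-fold higher with Nurr1, 1.23-fold lower with Foxa2 and 1.19-fold higher with both, and Ccnd3 1.28-fold higher, 1.10-fold higher and 1.19-fold lower. The retinoblastoma gene Rb1, whose protein cyclin D1 kinases inactivate, was 2.37-fold higher with Nurr1 and 3.33-fold with both, and E2f2 2.66-fold and 3.23-fold. Cdkn1c, encoding a kinase inhibitor, was down 4.54-fold under Nurr1 but 2.08-fold above Control under Foxa2, and Cdkn1a was 2.04-fold higher with Foxa2 and 6.77-fold with both. Rbl1 was at least 2.03-fold higher with Foxa2. In all 2 of 18, 3 of 17 and 3 of 18 were at least 2-fold higher, beside 4.43%, 3.58% and 7.18% of all genes. At least 2-fold lower were 1, none and none, beside 2.83%, 1.5% and 4.81%. The list's medians were 0.24, 0.28 and 0.31. With background left in, the count with Foxa2 was 1.

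Markers of S phase and mitosis were above Control in all 3 comparisons, as Ccnd1 was, and these comparisons share 1 Control array. All 13 with a difference lay above Control in each comparison. At least 2-fold higher were 8 with Nurr1, 8 with Foxa2 and 4 with both, where 4.43%, 3.58% and 7.18% of all genes were. When background was left in these counts were 7, 3 and 1, and the authors' values gave 7, 2 and 1. With Nurr1 the highest were Nusap1 (2.70-fold) and Cenpa, Plk1 and Top2a (2.63-fold each), and with Foxa2 the replication gene Mcm5 (2.64-fold), Top2a (2.58-fold), Mcm3 (2.28-fold) and Mcm2 (2.21-fold). With both they were Top2a (2.61-fold), Plk1 (2.14-fold), Cdk1 (2.11-fold) and Mcm5 (2.02-fold). The medians of 1.14, 1.06 and 0.76 stood below the 2.12, 1.75 and 2.23 of Ccnd1. Markers of glia moved with the groups too: the summed signal of 3 named astrocyte markers was 75220 on the Control array, 33000 with Nurr1, 58510 with Foxa2 and 25180 with both. That of 5 oligodendrocyte lineage markers was 65100, 56160, 45640 and 31420. These sums are of deposited signals and come mostly from Slc1a3 (astrocyte) and Olig1 (oligodendrocyte lineage). On the Control array Slc1a3 read 60640 and Olig1 53320, where the highest signal was 64772. Whether these signals had a ceiling was not tested. After normalization Olig1 was 1.01-fold lower with Nurr1, 1.30-fold with Foxa2 and 1.84-fold with both. With Foxa2, Mbp was at least 1.82-fold higher, while the other 4 oligodendrocyte lineage markers lay below Control. Of 6 neural precursor markers 5 lay below Control with Nurr1 (median -0.81) and 5 with both (-1.20), where Fabp7 was 4.70-fold, Hes5 4.28-fold, Notch1 2.50-fold and Sox2 2.11-fold lower. The exception was Vim, 1.63-fold and 1.31-fold higher, and with Foxa2 the median was -0.14. Their summed signal, with Vim the largest part on each array, ranged from 23150 to 32290. The 5 neuron markers summed to between 10630 and 14310 but parted: with Nurr1, Syt1 was 3.09-fold and Stmn2 2.61-fold higher and Rbfox3 2.80-fold lower. With both, Stmn2 was 2.09-fold higher and Rbfox3 3.36-fold lower. Of 4 named mural and meningeal markers 2 were detected on any array, Acta2 and Dcn, and none on the Control array. All 4 signals, those of the undetected Col1a1 and Lum included, summed to 461.5, 841.6, 1807 and 764.8. The sum with Foxa2 was mostly Acta2, which read 1465 there and was at least 13.6-fold above Control. The part of cell division and of cell makeup in the values of the 4 genes was not tested.

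Over the 4 arrays, the genes with profiles nearest to Dusp6 were Cited2, a transcriptional coregulator, Stmn4, of the stathmin family, and Myadm. Likeness was measured as the root mean square distance between log2 profiles, each centred on its own mean, among 8226 other genes detected on at least 1 array. The distances were 0.03 (0.09 with the floor, Cited2 being undetected with Control), 0.09 and 0.15. The same 3 genes were nearest to Ccnd1, at 0.15 (0.21 with the floor), 0.19 and 0.19, and Dusp6 and Ccnd1 themselves lay 0.13 apart. Cited2 read 158.3 on the Control array, 407.5 with Nurr1, 318.5 with Foxa2 and 453.8 with both, with Control not detected. These distances use values below detection as they stand, which for Dusp4 includes its Control value. Dusp4 was listed nearest to the glypican gene Gpc3 (0.18), the phosphodiesterase gene Pde1a (0.35) and Osbpl3 (0.39), but with the floor these distances were 0.48, 0.65 and 0.58. Ier3 was nearest to the sortilin-family receptor gene Sorcs3 (0.16) and the neuromedin B gene Nmb (0.19), both detected on all 4 arrays. C1qtnf2 (0.16) also ranked among its 3 nearest but was detected with Nurr1 alone, and its distance with the floor was 0.73. Sorcs3 read 233.4, 1107, 331.8 and 644.6, again highest with Nurr1 and lower with both factors. Ier3 lay 0.68 to 1.19 from the other 3 members. With 4 arrays and 8226 candidates such matches are a description of these arrays.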

How the data were processed

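RNA of 4 samples was measured on 1 single-colour Illumina mouse bead array each, after labelling of biotinylated complementary RNA, per the labels' protocols. The deposited scanner table holds a bead signal (linear intensity, not normalized) and a detection p-value for each of 25697 probes, per the file headers. A second deposited table gives the authors' log2 values for 13246 probes. Its columns rank probes as the signals do (Spearman's rho 1.0) and share 1 distribution (median 9.04), as quantile normalization gives. The software used is not given in the sources used here.

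Signals were background-corrected from the detection p-values with neqc of limma 3.58.1 (R 4.3.3; offset 16, quantile normalization, log2). Python 3.11.15, numpy 2.4.6, pandas 2.3.3 and matplotlib 3.10.9 did the rest, checked on simulated arrays. Gene symbols came from the platform annotation (12484 probes with 1 symbol). The probe with the highest mean stood for a gene in counts and lists. A gene counted as higher or lower at a log2 difference of at least 1 with the brighter array detected. Named were all probes of the 4 genes, up to 4 genes per list, direction and comparison past 2-fold, a short set of feedback, early and D cyclin genes whatever their values, and the 3 nearest profiles per gene. The members and lists were chosen with earlier results of these data known, and the CCAAT and TATA searches after seeing the windows. Promoter sequences are RefSeq's (GRCm38.p6), and 2 of the 4 genes matched. With 1 array per group no test was made. Alternatives were no background correction, equal medians, the authors' values, an offset of 50, detection p under 0.05, no floor, pairwise normalization, the mean over probes and a 1.5-fold threshold.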

Additional observations from a re-analysis of the deposited data

Results flagged for a closer look

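Ier3 was singled out because Foxa2 went with opposite differences depending on whether Nurr1 was present. Against Control, Foxa2 alone went with a slightly higher value, a log2 difference of 0.41. Added to Nurr1, it went with a lower one, -1.43. Each value is 1 array against 1 array, and each is larger than the spread between probes of a gene (0.197 and 0.201). The 0.41 depended on the processing: it was 0.235 with background left in and 0.24 in the authors' table, close to 0.197. In the same settings the -1.43 was -1.18 and -1.17. The difference between 0.41 and -1.43 was not tested. The Control signal of Ier3 (172.6) lay just above the lowest detected signal (166.4), and no second probe of the gene is named.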

How the results depend on the processing

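Under 8 alternatives, 187 of the log2 differences of the 4 genes stayed on their side of 2-fold and kept their direction, and 5 fell short. With background left in and in the authors' table, Dusp4 with both factors against Foxa2 gave 0.99 and 0.98, and Ier3 with both against Control 0.85 and 0.86. Averaging all detected probes put Dusp6 with Foxa2 against Control at 0.54, because the dimmer probes enter as bounds. The count of the 4 genes at least 2-fold higher with both factors against Foxa2 became 0 in the first 2 of these settings and 3 at 1.5-fold; the other counts of members stayed within 1.5 times. At 1.5-fold the count of all differing genes was 1366, 1099 and 2151 for Nurr1, Foxa2 and both against Control, 1332 and 1574 for both against Nurr1 and against Foxa2, and 1342 for Nurr1 against Foxa2. For Foxa2 against Control, 396 differing genes became 254 with background left in and 257 in the authors' table. Departures from the sum of single effects were recomputed under 7 settings chosen after seeing the data, 4 arrays being needed, so that pairwise normalization gives none. Of these values 27 kept direction and size past 1, and Dusp6 averaged over its probes gave -0.37. Of the pathway lists, 230 recomputed counts at 2-fold stayed within 1.5 times and 34 did not, at 1.5-fold 10 did and 23 did not, and 243 medians moved by less than the probe spread and 21 by more. No paired analysis was possible because each group has 1 array. Signals near the detection floor limit Dusp4, the dim Dusp6 probes and Ier3 on the Control array.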

Other observations

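Of 14 listed NF-kappaB response genes, 5 had a difference from Control: Nfkbia, Nfkbib, Nfkbie, Rela and Vcam1. Of these, 4 lay below with Nurr1, 4 with Foxa2 and 4 with both, counts that use no threshold. At least 2-fold lower were 1, 1 and 2, where 2.83%, 1.5% and 4.81% of all genes were. The adhesion molecule gene Vcam1 was 5.35-fold, 3.08-fold and 10.5-fold lower, and Nfkbie, an NF-kappaB inhibitor, at least 2.32-fold lower with both factors. The list's medians were -0.51, -0.62 and -0.99, beside -0.03, -0.04 and -0.09 over all genes. With background left in the list's medians were -0.30, -0.36 and -0.72. The list includes Rela, which encodes an NF-kappaB subunit, and any relation to Ier3 was not tested.

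The Hedgehog targets Hhip (at least 3.07-fold) and Ptch1 (2.05-fold) were higher with Foxa2, and Ptch1 was 1.67-fold lower with Nurr1 and 1.25-fold lower with both. Any relation to Ccnd1 was not tested. A named probe was found for 4 of the 10 genes of the Hedgehog and Wnt list. In the p38, JNK and ERK5 cascades, Map2k6, which activates p38, was 3.25-fold higher with Foxa2 and 2.10-fold with both, and Map2k5, which activates ERK5, 3.20-fold higher with both and within 1.06-fold of Control with either factor alone. None of 9 genes with a difference passed 2-fold with Nurr1.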
